A study of Mus musculus with 6 samples.

Results

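Replication-dependent histone genes encode the 4 core histones, H2A, H2B, H3 and H4, and the linker histone H1, and lie in clusters of short, mostly intronless genes. Their mRNAs usually end in a conserved 3′ stem-loop that is bound by SLBP (stem-loop binding protein) in place of a poly(A) tail, and they accumulate in S phase, when new chromatin has to be packed. Preadipocytes divide, whereas mature adipocytes have left the cell cycle. The genes were found in the deposited table by symbol, as H1f1 to H1f5 and every numbered H2ac, H2bc, H3c and H4c symbol. The table held 40 such genes among 13283, out of 63 symbols of this kind that RefSeq lists for the mouse. The family was chosen by its measured difference between MICT1 KO and control cells in these same libraries, so that difference is given below as a description. Calls of single genes come from a fit over all genes and are no test of the family.

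RNA was sequenced from 3 control and 3 MICT1 KO cultures of an immortalized mouse brown preadipocyte (BAT) line that stably expresses Cas9. Control cells carried a scrambled sgRNA (Scr). MICT1 KO cells were knockout pools made with 2 sgRNAs against MICT1, a microprotein gene, and the labels do not tell which pool gave which library. All 6 cultures were differentiated and were exposed at day 6 to 10 µM forskolin, which raises cAMP, for 6 h. The study's methods call the replicates biological, and they come from 1 cell line and its pools, so the spread covers these cultures only. The deposited values are a normalized signal per gene, namely estimated reads divided by a size factor per library, and are not whole counts. They sum to between 16104616 and 16616825 per library, with estimated depths of 15445812 to 17925629 reads. MICT1 itself was not analysed here. Of the adipocyte markers, all 11 tested were lower in MICT1 KO libraries, among them the fatty acid binding protein gene Fabp4, and the summed level of the 12 listed markers was 7757 to 9399 CPM (signal scaled to a library sum of 1000000) in control and 924 to 1331 CPM in KO libraries. Of 10 macrophage markers 3 were in the table, at a sum of 6.33 to 9.21 CPM in control and 7.91 to 9.86 CPM in KO libraries, and the defining gene Ptprc was not among them. Of 7 endothelial markers only Cdh5 was in the table, at 5.93, 12.1 and 8.14 in control and 33.4, 30.6 and 25.9 in KO libraries. Of the preadipocyte markers 5 were tested, of which 3, Pdgfrb, Ebf2 and Ly6a, rose and 2, Dlk1 and Pdgfra, fell. Beside these marker counts, 28.5% of all 12507 genes tested were called higher and 28.3% lower (limma-trend, adjusted p under 0.05). In bulk RNA a larger share of cells that hold histone mRNA and more histone mRNA in each cell cannot be told apart.

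The 40 genes fell into 3 clusters on the mouse genome (GRCm38, RefSeq positions). The cluster on chromosome 3, chr3:96219885-96270192, gave 7 of its 10 symbols. The proximal cluster on chromosome 13, chr13:21715711-22043658, gave 13 of 23. The distal cluster, chr13:23531044-23934913, gave 20 of 30. By type they were 5 H1, 8 H2A, 10 H2B, 10 H3 and 7 H4 genes. The remaining symbols were not analysed here, and every value in the table lies above 0.

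The 3′ stem-loop is shown first because it is the feature that sets these mRNAs apart, and because it bears on how they were counted. A 16-base stem-loop of the histone type, searched by its known form on the sense strand after the stop codon, was found in the GENCODE vM21 transcript models of 24 of the 40 genes. It began 24 to 58 bases after the stop codon, in the 3′ untranslated part of the transcript. Its letters took 6 forms, and 1 of them was shared by 17 genes of types H1, H2A, H2B and H3. Each form is given below from 1 gene with 6 bases on either side, 5′ to 3′ on the sense strand, with the stem-loop in capitals.
H1f2 at chr13:23739506-23739533, plus strand, form of 17 genes: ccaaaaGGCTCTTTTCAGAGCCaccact
H3c8 at chr13:23535883-23535910, plus strand: tttaaaGGCTCTTCTTAGAGCCacccat
H4c18 at chr13:21831792-21831819, minus strand, form of 3 H4 genes: actaaaGGCCCTTTTCAGGGCCatccaa
H4c9 at chr13:22040960-22040987, minus strand: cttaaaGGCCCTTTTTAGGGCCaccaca
H4c1 at chr13:23760794-23760821, minus strand: accaaaGGCCCTTCTCAGGGCCgcccac
H4c11 at chr13:21735431-21735458, plus strand: cctaaaGGTCCTTTTCAGGACCaccaca

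In 14 of the 24 genes the annotated transcript ran on for at least 100 bases past the stem-loop, and in 10 it stopped nearer to it. The summed level of the first set was 3.40 times higher in MICT1 KO than in control libraries and that of the second 3.44 times. In the other 16 genes, several of which are annotated from start codon to stop codon only, the ratio was 3.002. These ratios lean on single abundant genes. H1f2 gave 314, 390 and 208 of the first set's summed signal of 557, 636 and 390 in control replicates 1 to 3. H2bc4, whose model holds no stem-loop, gave 453, 495 and 341 of 749, 771 and 526 in the 16 genes. The ratios therefore do not compare the kinds of annotation. The study's methods describe total RNA libraries, which also take RNA without a poly(A) tail, whereas the labels give total RNA as the extracted molecule and a service company for the libraries, with no library kit. Under poly(A) selection the values would count only histone RNAs that carry a tail, and the table does not settle which was used.

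Promoter sequence was the second shared feature. RefSeq promoters of 300 bases (GRCm38.p6, 250 before the start site and 50 after it) matched 37 of the 40 genes by symbol, all but H2bc4, H2bc21 and H3c1. Each motif was searched on both strands. TATAAA, the letters of the TATA box, was found anywhere in the window in 62.2% of the 37 promoters and in 13.6% of all 32851. Some of these matches lie after the start site, as in H2ac18, or far before it. In H2bc12 the match begins 198 bases before the start site, on the opposite strand. CCAAT, bound by NF-Y, stood in 86.5% against 37.4%, and among the H4 genes in only 2 of 7. ATTTGCAT, the octamer that POU2F1 (Oct-1) binds at H2B genes, was found in 3 of 8 H2B and 3 of 8 H2A promoters and in none of the other types, against 1.74% of all promoters. Neighbouring H2A and H2B genes share a promoter region, so some octamer and TATAAA matches are the same bases seen from both genes. AAACACA, the H1 box, stood in 4 of 5 H1 promoters and in no other member's, against 7.18% of all. A match is a description of letters in this window and not a measured site. Promoters of H1f2 (the most abundant member with a promoter sequence), H2bc8 (the largest log2 difference among H2B genes) and H3c2 (the largest of all) are given with these motifs in capitals, 5′ to 3′ on the gene's strand. In H1f2 the H1 box begins 112 and the CCAAT box 54 bases before the start site. In H2bc8 the octamer begins 59 and the TATA box 43 bases before it, and in H3c2 the TATA box begins 29 bases before it.
H1f2 at chr13:23738557-23738856, plus strand: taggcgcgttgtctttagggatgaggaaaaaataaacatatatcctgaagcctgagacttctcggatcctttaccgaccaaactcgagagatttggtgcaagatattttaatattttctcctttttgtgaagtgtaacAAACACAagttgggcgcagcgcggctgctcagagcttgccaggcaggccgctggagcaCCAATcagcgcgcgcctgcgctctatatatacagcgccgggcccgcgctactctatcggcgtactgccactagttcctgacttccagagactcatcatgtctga
H2bc8 at chr13:23571150-23571449, plus strand: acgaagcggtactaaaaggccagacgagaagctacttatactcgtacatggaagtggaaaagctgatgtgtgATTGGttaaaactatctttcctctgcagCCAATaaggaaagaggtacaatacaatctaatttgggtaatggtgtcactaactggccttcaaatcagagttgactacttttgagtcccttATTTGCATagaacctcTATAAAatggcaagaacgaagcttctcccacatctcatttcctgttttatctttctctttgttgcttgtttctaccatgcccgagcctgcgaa
H3c2 at chr13:23752095-23752394, plus strand: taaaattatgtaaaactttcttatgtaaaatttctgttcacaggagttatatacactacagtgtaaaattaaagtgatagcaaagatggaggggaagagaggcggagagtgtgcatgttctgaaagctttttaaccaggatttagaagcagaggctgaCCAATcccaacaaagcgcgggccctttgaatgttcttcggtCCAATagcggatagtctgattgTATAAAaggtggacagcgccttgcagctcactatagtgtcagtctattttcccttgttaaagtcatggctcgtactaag

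As a family, the histone genes were higher in MICT1 KO cells. Their summed level was 93.3, 98.4 and 65.7 CPM in control replicates 1 to 3 and 317, 241 and 269 CPM in KO replicates 1 to 3. The mean was 85.8 ± 17.6 CPM (SD, n = 3) in control and 275 ± 38.5 CPM (SD, n = 3) in KO libraries, a ratio of 3.21, and the groups did not overlap. Without control replicate 3, the lowest library, the ratio was 2.88. Of the 40 genes, 39 had a higher mean in KO libraries, and H3c6 was the exception (7.49 against 7.42). In 27 of the 40 the lowest KO value lay above the highest control value, in 0 the reverse held, and in 13 the groups overlapped. Among all 12507 genes tested, 30.9% had all KO values above all control values and 31.2% had all below. Of the 35 members that were tested (below), 25 had all KO values above all control values.

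Of the 40 genes, 35 passed the filter on low values (at least 10 in at least 3 libraries) and entered the fit across all genes. H2ac8, H2bc22, H3c6, H4c4 and H4c11 did not. With limma-trend, 27 of the 35 fell under an adjusted p of 0.05 as higher in KO and 0 as lower, where 28.5% of all tested genes were called higher and 28.3% lower. The other 8 were H2ac6, H2ac19, H2bc9, H2bc21, H3c1, H3c13, H4c8 and H4c12. The median log2 fold change of the 35 was 1.68, with a range of -0.03 to 4.22, beside a median of -0.01 over all genes tested. Since these genes were selected on this very difference, the counts describe the selection. In 7 members all 3 control values were under 10, and the 2 of these that were tested, H2ac7 and H3c2, passed only through their KO values. The remaining 33 had a median of 1.63. Several of them, such as H2ac22 and H2bc15, also needed KO values to pass, since not all their control values reached 10. This median is therefore not free of the filter either.

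**Figure D1:**
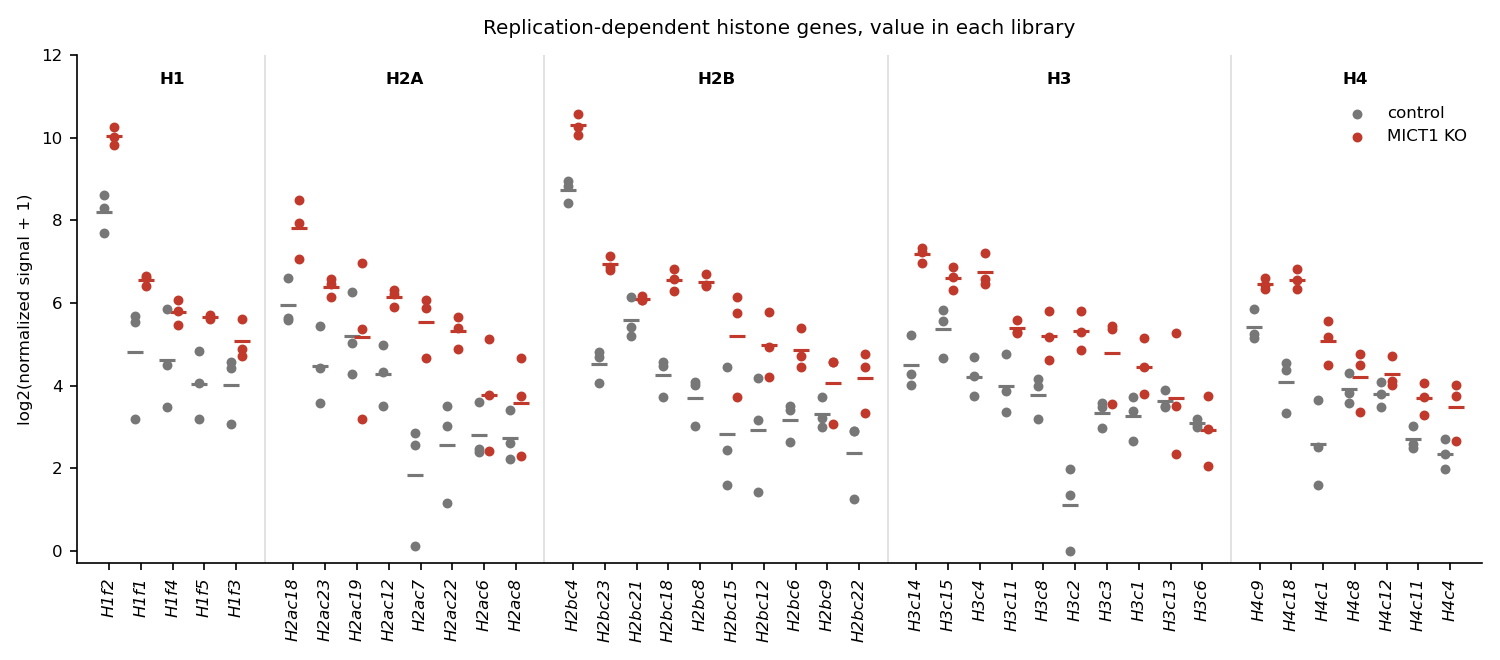
Value of each of the 40 replication-dependent histone genes in each library, as log2(normalized signal + 1), grouped by histone type and ordered by mean. Grey points are the 3 control and red points the 3 MICT1 KO libraries, and dashes mark group means. H1f2 and H2bc4 stand above all others in both groups, and in 27 of 40 genes the red points all lie above the grey ones.

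All 5 histone types were higher in KO libraries, with ratios of 2.70 to 3.62. The summed level of the H1 genes was 24.5 ± 8.05 CPM in control and 79.2 ± 10.8 CPM in KO libraries (SD, n = 3 each, here and in the next sentences), a ratio of 3.23. For H2A it was 10.6 ± 1.40 and 35.3 ± 6.31 CPM, a ratio of 3.33. H2B genes summed to 35.0 ± 7.28 and 110.3 ± 17.8 CPM, with a ratio of 3.15. The H3 sums were 9.30 ± 0.30 and 33.7 ± 3.79 CPM, and their ratio was 3.62. H4 had the smallest ratio, 2.70, from 6.31 ± 1.08 to 17.0 ± 1.01 CPM. In each type the control and KO libraries did not overlap. H1f2 held most of the H1 signal and H2bc4 most of the H2B signal in every library, so the H1 and H2B ratios rest mainly on single genes. H2B genes gave 40.0% to 41.9% of the family's signal in control and 39.4% to 41.0% in KO libraries, and H1 genes 23.6% to 31.5% and 28.5% to 29.3%. The H4 share was 6.92% to 7.71% in control and 5.29% to 6.75% in KO libraries, and H4 was the only one of the 5 types whose shares did not overlap between the groups. The gap, from 6.75% to 6.92%, was narrow. The shares of the types depend on each other, and this difference was not tested.

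**Figure D2:**
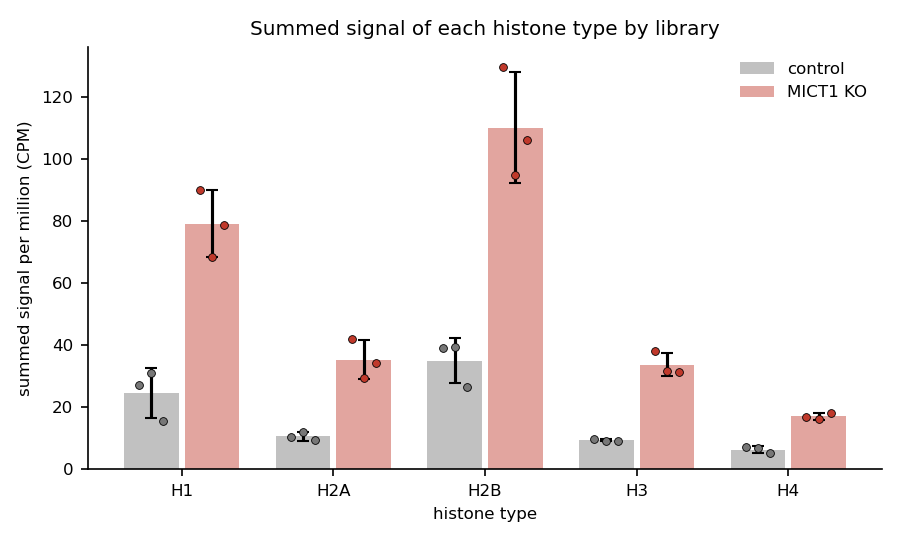
Summed signal of the H1, H2A, H2B, H3 and H4 genes in CPM. Bars are means, error bars SDs and points the 3 libraries of each group. KO libraries lie above control libraries in every type, from a ratio of 2.70 for H4 to 3.62 for H3.

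H1 genes encode the linker histones that bind between nucleosomes. All 5 were tested and called higher, with log2 fold changes of 1.05 to 1.84. Here and for the other types, counts of calls stand beside the 28.5% of all tested genes called higher. The calls of H1f4 and H1f3 were lost in 4 and 3 of the 6 fits that left out 1 library (H1f4 without control replicate 1 or 3 or KO replicate 1 or 3, H1f3 without control replicate 2 or KO replicate 1 or 3). H1f2 read 314, 390 and 208 in control and 1236, 901 and 1045 in KO replicates 1 to 3, a log2 fold change of 1.84 (SE 0.16). H1f1 stood at 50.4, 45.4 and 8.14 in control and 100.1, 96.9 and 84.0 in KO libraries (1.76, SE 0.44). H1f4 gave 21.8, 56.5 and 10.2 against 65.8, 43.2 and 54.9 (1.17, SE 0.43), and it is the H1 gene whose groups overlapped. H1f3 had the smallest difference, from 22.7, 7.42 and 20.4 to 28.6, 25.3 and 47.7 (1.05, SE 0.44). H1f5 was at 17.2 ± 9.86 in control and 49.6 ± 1.90 in KO libraries (SD, n = 3 each). Control replicate 3 was the lowest control for H1f1, H1f2, H1f4 and H1f5. H1f1 and H1f5 share no stretch of 50 coding bases with another gene, so their values do not rest on dividing reads between paralogs.

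H2A genes, whose products pair with H2B in the nucleosome, were called in 5 of 7 tested. H2ac18 was the most abundant, with 46.8, 96.8 and 48.8 in control and 359, 242 and 133.0 in KO libraries (log2 fold change 1.88, SE 0.29). H2ac23 read 10.9, 20.6 and 42.5 in control and 94.4, 87.2 and 69.8 in KO libraries (1.91, SE 0.37). Both had all KO values above all control values. H2ac19 was the only tested member with a log2 fold change below 0, at -0.03 (SE 0.63), and its values ran from 76.4, 31.9 and 18.6 in control to 40.3, 8.06 and 124 in KO libraries. H2ac18 and H2ac19 share every 50-base coding stretch with another gene, and their reads could not be separated by coding sequence. KO replicate 3 had the lowest H2ac18 and the highest H2ac19 value of the 3 KO libraries. H2ac7 had the largest H2A difference, from 0.0878, 6.17 and 4.91 in control to 66.4, 24.6 and 57.9 in KO libraries. Its log2 fold change was 3.70 (SE 0.65) with a pseudocount of 1 and 2.63 with a pseudocount of 5. H2ac12, H2ac22, H2ac6 and H2ac8 had means of 6.11 to 19.99 in control and 13.6 to 70.2 in KO libraries.

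Among the H2B genes 7 of 9 tested were called higher. H2bc4 held the largest share of the family's signal, with 453, 495 and 341 in control and 1535, 1074 and 1234 in KO libraries (log2 fold change 1.58, SE 0.12). H2bc4 and H1f2 together held more signal than the other 38 genes in 6 of 6 libraries, since those gave 45.8% to 49.1% in control and 46.8% to 49.6% in KO libraries. Without these 2 genes the ratio of KO to control was 3.22. H2bc23 went from 24.7, 27.1 and 15.6 in control to 139, 117 and 110 in KO libraries (2.42, SE 0.28). H2bc18 read 22.7, 21.3 and 12.2 against 112, 94.8 and 76.7 (2.30, SE 0.31). H2bc8 had the largest log2 fold change of the type, 2.81 (SE 0.35), with 16.1, 15.1 and 7.09 in control and 83.7, 103 and 86.2 in KO libraries. H2bc21 had the smallest, 0.52 (SE 0.28), with 70.2, 41.7 and 35.6 in control and 66.7, 70.6 and 66.3 in KO libraries, and control replicate 1 lay among the KO values. H2bc21 shares no coding stretch of 50 bases with another gene. Means of H2bc6, H2bc9, H2bc12, H2bc15 and H2bc22 lay between 4.80 and 9.17 in control and between 17.7 and 45.1 in KO libraries. Of these, H2bc15 was called though its groups overlapped (12.1 to 69.8 in KO against 2.01 to 20.9 in control libraries).

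H3 genes were called in 7 of 9 tested. H3c14 read 18.4, 15.0 and 36.6 in control and 123, 150 and 162 in KO libraries (log2 fold change 2.67, SE 0.30). H3c15 gave 56.4, 46.1 and 24.6 against 116, 98.0 and 79.0 (1.25, SE 0.29). Like the H2A genes beside them on chromosome 3, this pair shares all its coding stretches with other genes. H3c4 went from 17.8, 24.7 and 12.4 to 148, 86.7 and 94.9 (2.53, SE 0.32). H3c2 had the largest log2 fold change of the family, 4.22 (SE 0.64), from 2.92, 1.03e-05 and 1.55 in control to 28.3, 55.2 and 38.7 in KO libraries. Its control values are at or below 3 estimated reads, so the fitted change depends on the pseudocount and was 4.71 at 0.5 and 2.80 at 5. H3c13 was close to 0, at 0.08 (SE 0.63), with 10.3, 13.9 and 10.1 in control and 37.5, 4.04 and 10.3 in KO libraries. H3c1 was higher in all 3 KO libraries (12.8 to 34.3 against 5.29 to 12.2) but was not called, and H3c3 was called though its groups overlapped (10.8 to 42.4 against 6.87 to 10.9). H3c8, H3c11 and H3c6 had control means of 13.3, 16.3 and 7.49 and KO means of 37.9, 41.3 and 7.42.

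Of the H4 genes, which encode the partner of H3, 3 of 5 tested were called higher. H4c9 was the most abundant, with 56.9, 37.1 and 34.6 in control and 80.1, 96.5 and 86.0 in KO libraries (log2 fold change 1.04, SE 0.26). H4c18 read 19.8, 22.2 and 9.16 in control and 92.5, 79.5 and 112 in KO libraries (2.48, SE 0.34). H4c1 had the largest log2 difference of the type, 2.50 (SE 0.56), from 1.996, 11.7 and 4.70 to 35.0, 21.8 and 46.5. H4c8 had the smallest, 0.30 (SE 0.48), with 10.98, 18.9 and 13.2 in control and 21.6, 26.1 and 9.34 in KO libraries, which overlap. H4c12 stood at 13.03 ± 2.90 and 19.0 ± 5.65, H4c11 at 5.58 ± 1.35 and 12.2 ± 3.47, and H4c4 at 4.20 ± 1.30 and 10.99 ± 5.15 (control and KO mean ± SD, n = 3 each).

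By position, all 3 clusters were higher in KO libraries. The chromosome 3 genes summed to 15.4 ± 3.71 CPM in control and 44.3 ± 6.59 CPM in KO libraries (SD, n = 3 each), a ratio of 2.88, and 4 of 7 tested genes were called. In the proximal cluster of chromosome 13 the sums were 12.7 ± 0.98 and 43.9 ± 3.09 CPM, with a ratio of 3.45, and 10 of 11 tested genes were called. The distal cluster went from 57.7 ± 13.6 to 187 ± 29.9 CPM, a ratio of 3.25, with 13 of 17 called. H1f2 and H2bc4 lie in the distal cluster and together held most of its signal in every library, so its sum and ratio rest mainly on them. Over all genes tested, 28.5% were called higher. As the family was selected on this difference, the counts do not compare the clusters. The median log2 fold changes of the tested genes were 1.25, 1.91 and 1.58 in this order. Of the 3 uncalled genes on chromosome 3, H2ac19 and H3c13 share coding stretches with paralogs, at 100% and 94.2% of their 50-base windows, and H2bc21 shares none.

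**Figure D3:**
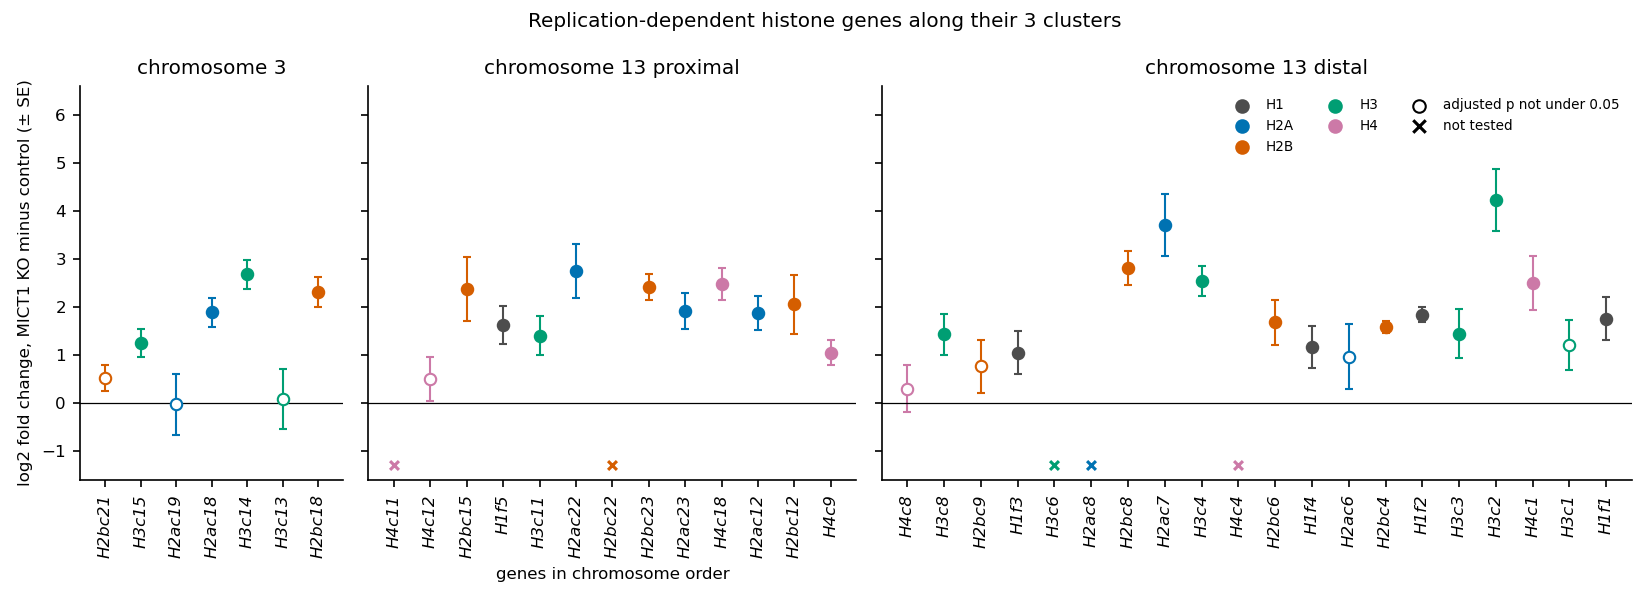
Log2 fold change of each gene (MICT1 KO minus control, on the log2(value + 1) scale, with its SE) in chromosome order along the 3 clusters, coloured by histone type. Filled points are genes called higher, open points tested genes that were not called, and crosses near the lower edge genes that were not tested. Called genes of all 5 types lie in both clusters of chromosome 13, and on chromosome 3 the 4 called genes are of types H2A, H2B and H3.

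H2A and H2B genes often lie head to head and share the region between their start sites. There were 5 such pairs with both genes in the table, 167 to 239 bases apart. Both genes had a higher mean in KO libraries in each pair, but their levels could be far from each other. H2ac6 stood at a mean of 6.61 in control and 17.1 in KO libraries while H2bc4, 239 bases away, stood at 430 and 1281. H2ac23 and H2bc23 were near each other in control, at 24.7 and 22.5, and reached 83.8 and 122 in KO libraries. These are mean signals, not divided by length.

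Per length, levels depended on the gene model. The members' median RPKM (per kilobase of GENCODE exon, at the CPM scale) was 1.16 in control and 4.22 in KO libraries, from 0.11 for H2bc6 to 22.7 for H2bc4 in control. The H2bc6 value rests on a gene model with 4446 exon bases and no coding transcript, so its place as the lowest depends on that model. The DNA replication genes listed below had a median of 25.4 RPKM in control. GENCODE exons run at least 100 bases past the stem-loop in 14 members, and a longer model gives a lower RPKM for the same reads. In CPM per kilobase of coding sequence, the median of 39 members was 2.05 in control and 6.20 in KO libraries. On this scale H2bc4 stood at 68.9 in control, H1f2 at 29.0 (11.9 RPKM over exons) and H1f3 at 1.55 (0.14 RPKM over exons), values that are not on the length basis of the DNA replication genes. Reads were also hard to assign. Of the 39 members with a coding model, 32 share at least 50% of their 50-base coding windows with another gene and 8 share all of them. For 30 members the deposited values were not whole reads in at least 2 libraries, which is how divided reads appear, and single-gene values within a type are therefore uncertain. The 10 members with whole reads in at least 5 libraries had a ratio of 3.15 and the 30 others 3.24. H1f2 is among the 10 and H2bc4 among the 30, and each gave a large part of its set's sum. These ratios therefore tell little about members with low values. The libraries differed as well. Control replicate 3 was the lowest of its group in 21 of 40 members and KO replicate 2 in 21 of 40, while KO replicate 1 was the highest KO library in 22.

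Histone genes outside the chosen symbols are mostly replacement variants, whose mRNAs are polyadenylated, but the list is mixed. H2aw (formerly Hist3h2a) is a core-type H2A gene at another locus, and H2ax mRNA can also end in a stem-loop. Of 12 tested, 8 rose and 1 fell, beside 28.5% and 28.3% of all genes, with a median log2 fold change of 0.47 beside -0.01 for all genes. H3f3b, one of the genes for H3.3, rose from 19993, 21666 and 19926 to 40297, 37882 and 37413 (log2 fold change 0.91, SE 0.06, adjusted p = 1.3e-11), and H3f3a, which encodes the same protein, was at 5107 ± 147 and 4776 ± 261 (-0.10, adjusted p = 0.14). H2ax, the variant marked at DNA breaks, rose by 0.55 (SE 0.06, adjusted p = 4.46e-08) and H2az1 by 0.40 (SE 0.05, adjusted p = 1.65e-06). The linker variants H1f10 and H1f0 rose by 0.94 (SE 0.09) and 0.21 (SE 0.06). H2aw showed the largest rise, from 42.5 ± 5.40 to 137 ± 22.4 (1.66, SE 0.23), and Macroh2a2 fell from 104 ± 18.6 to 34.1 ± 19.1 (log2 fold change -1.69, SE 0.31, adjusted p = 0.000101). These values are from limma-trend over all genes with Benjamini-Hochberg adjustment, with n = 3 libraries per group.

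Of 21 tested factors that switch on histone genes or process their mRNA, 1 rose and 7 fell, with a median of -0.03. The count that fell is near the 28.3% of all genes called lower, and the count that rose is below the 28.5% called higher. Slbp, which binds the stem-loop, rose from 4596, 4981 and 4673 to 6658, 6539 and 6371 (log2 fold change 0.46, SE 0.05, adjusted p = 2.7e-07). Npat, the coactivator of histone genes in the histone locus body, fell from 1937, 2016 and 2220 to 1494, 1658 and 1729 (-0.34, SE 0.07, adjusted p = 0.000325). Casp8ap2 (FLASH), which works in 3′ processing, fell from 1897 ± 132 to 1479 ± 162 (-0.36, SE 0.08), and Lsm11 of the U7 snRNP by 0.26 on the log2 scale (SE 0.08, adjusted p = 0.0116). The largest fall was that of Mif4gd, a partner of Slbp, from 309 ± 33.1 to 220 ± 27.7 (-0.49, SE 0.13), and Cramp1l fell by 0.37 (SE 0.07). Lsm10 (-0.06, SE 0.24), Hinfp, which acts on H4 promoters (0.32, SE 0.15), and Zfp473 (0.85, SE 0.38) did not pass the test. Of 25 chaperones and deposition factors, 6 rose and 5 fell, no larger shares than those over all genes (28.5% and 28.3%). Asf1b rose from 1378 ± 2.25 to 2003 ± 17.4 (0.54, SE 0.06), Hjurp by 0.53 (SE 0.09) and Spty2d1 by 0.62 (SE 0.07). The 5 that fell were Hat1 (-0.46, SE 0.07), Nasp (-0.35, SE 0.06), Ubn2 (-0.34, SE 0.07), Hira (-0.26, SE 0.07) and Asf1a (-0.25, SE 0.08).

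Of 52 DNA replication genes, 12 rose, 21 fell and 19 were not called, with a median of -0.11, where 28.5% of all genes rose and 28.3% fell. The ribonucleotide reductase subunit gene Rrm2 rose from 14448 ± 338 to 20331 ± 579 (log2 fold change 0.49, SE 0.05, adjusted p = 5.51e-08), Pcna from 7532 ± 29.9 to 8656 ± 194 (0.20, SE 0.05) and Dbf4 by 0.83 (SE 0.07). Mcm2, of the replicative helicase, fell from 8589 ± 297 to 5892 ± 124 (-0.54, SE 0.05, adjusted p = 1.39e-08). Cdca7 (-0.84, SE 0.07), E2f2 (-0.78, SE 0.17), E2f1 (-0.37, SE 0.06) and Ccne2 (-0.20, SE 0.05) also fell, while Ccne1 was at -0.04 (SE 0.07). All 32 mitosis genes rose, against the same background, with log2 fold changes of 0.31 to 1.29 and a median of 0.81. Among them Mki67 rose from 7609 ± 474 to 13897 ± 1807 (0.86, SE 0.07), Top2a from 6330 ± 162 to 10869 ± 433 (0.78, SE 0.05), Cdk1 by 0.62 (SE 0.05) and Ccnb1 by 0.52 (SE 0.06). Kif23 (1.29, SE 0.08), Nusap1 (1.26, SE 0.07) and Cenpe (1.22, SE 0.10) rose most. Whether these genes and the loss of adipocyte markers have a part in the histone difference was not tested.

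**Figure D4:**
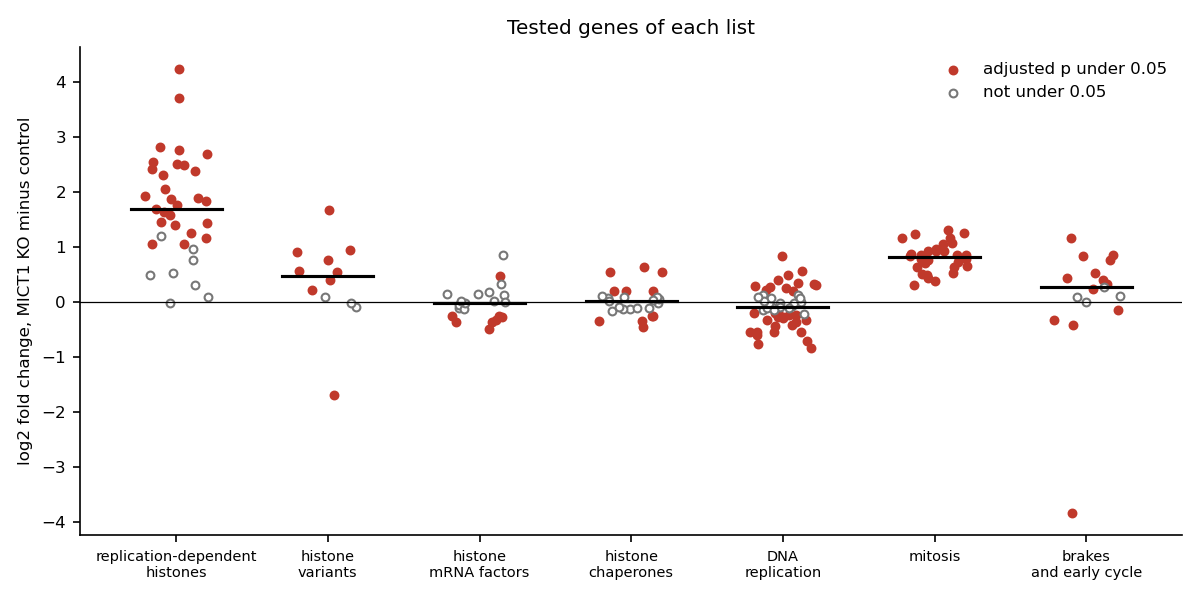
Log2 fold change (MICT1 KO minus control) of the tested genes of the histone family and of 6 other lists. Red points have an adjusted p under 0.05 (limma-trend, all genes), open points do not, and black lines are medians. The histone family has a median of 1.68, the mitosis genes lie wholly above 0 with a median of 0.81, and the DNA replication genes lie on both sides of 0.

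Of 17 cell cycle brakes and early cell cycle genes, 9 rose and 4 fell, and the latter count is near the 28.3% of all genes called lower (28.5% were called higher). Cdkn1c, which encodes the cyclin-dependent kinase inhibitor p57, fell from 292, 322 and 314 to 20.02, 13.7 and 32.1 (log2 fold change -3.84, SE 0.26, adjusted p = 5.29e-11). The counts mix brakes with cyclin and kinase genes. Cyclin D1 (Ccnd1) rose from 412 ± 27.3 to 924 ± 33.0 (1.17, SE 0.09). The brakes went both ways. The inhibitor genes Cdkn2a (0.39), Cdkn2b (0.83), Cdkn2c (0.42) and Cdkn2d (0.85, SE 0.11) rose. Besides Cdkn1c, those that fell were Cdkn1b (-0.14), Rb1 (-0.33) and Rbl1 (-0.42). Cdkn1a, which encodes p21, stood at 15068 ± 1325 and 15056 ± 819 and was not called. Of 21 RNAs that carry no poly(A) tail and are not histone mRNAs, only Rmrp was in the table, at 7.91, 34.3 and 5.09 in control and 10.49, 14.8 and 7.26 in KO libraries, with no call. This list therefore says little about how RNA without a tail was taken up in each group.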

How the data were processed

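The authors deposited 1 table of normalized signal per gene for all 6 libraries. Per the methods, strand-specific total RNA libraries were sequenced in pairs and aligned with Partek to NCBI38/mm10, and the submitters' processing notes also name STAR and DESeq2, without a role. The sample labels credit library construction to a service company and name no library kit. Between 88.7% and 90.4% of values under 20 were whole multiples (tolerance 0.01) of a step per library, so the values were read as estimated reads over a size factor, and limma-trend (limma 3.58.1, R 4.3.3) was used on log2(value + 1) instead of a count test. Fold changes are on that scale and understate the change of low genes. The 12507 genes that reached 10 in 3 or more libraries were tested, with Benjamini-Hochberg adjustment over all of them and a threshold of 0.05. An exact test of 3 against 3 libraries cannot go below p = 0.1. Each library was grouped by its label. Within groups, correlations over tested genes were 0.9865 to 0.9898, and between groups 0.9288 to 0.9402.

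The family and the lists were chosen with earlier results of these data known. Values in every library are given, for each histone type, for the 3 members with the highest mean, those with the largest and smallest log2 fold change, any below 0, and members that bear on paralog counting. In each other list a fixed set of well-known genes and the 3 largest called changes are named. Further called genes are named from the brakes, the chaperones and the histone mRNA factors. CPM divides by the library's summed signal, and RPKM also by GENCODE vM21 exon length. Motifs were searched in RefSeq promoters and stem-loops in GENCODE transcripts. The functions were tested on simulated data. Alternatives were other scalings, filters, pseudocounts, limma-voom, the replicate number as a block, and leaving out each library.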

Additional observations from a re-analysis of the deposited data

How the results depend on the processing

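The number of histone genes called higher was 26 to 29 under every other scaling, pseudocount, voom weighting or filter tried, except with a minimum mean of 4 CPM, where 6 genes were left to test and all 6 were called, and 21 to 27 when any 1 library was left out. None was called lower in any of these fits. Calls were lost, some because the gene no longer passed the filter on low values, for H1f4 and H3c3 without control replicate 1, H1f3 without control replicate 2, H1f4 without control replicate 3, H1f3, H1f4, H2ac7, H2bc12, H3c2, H3c3 and H3c8 without KO replicate 1, H2ac7, H3c2 and H3c3 without KO replicate 2, and H1f3, H1f4, H2ac7 and H3c2 without KO replicate 3. H1f3 was also lost with library totals or a pseudocount of 0.5, and H3c1 was gained with no filter, a pseudocount of 5, or without control replicate 3 or KO replicate 2. H2bc21 was gained without control replicate 1, H2ac6 without KO replicate 1 and H2bc22 with no filter. Lsm11 lost its call without control replicate 1 or 2 or KO replicate 3. Pou2f1, also among the histone mRNA factors called lower (adjusted p = 0.0398, limma-trend), lost it without control replicate 1, 2 or 3 or KO replicate 1 or 3. Cdkn1b lost its call with library totals or TMM, and without control replicate 2 or 3 or KO replicate 1. Asf1a lost its call without control replicate 2. The ratio of the summed levels was 2.88 to 3.47 with a library left out (chosen after seeing the data). Among genes named but not called, H2ac19 changed sign with a pseudocount of 5 (0.036), and it, H3c13, Lsm10 and Cdkn1a did so with a library left out, in ranges of -0.929 to 0.966, -0.706 to 0.761, -0.264 to 0.0613 and -0.0734 to 0.0461. Histone mRNA factors called higher were 3 with library totals, TMM, voom or the 4 CPM minimum, 2 with a pseudocount of 5 and 1 to 3 with a library left out. Histone variants called lower were 1 or 2 with a library left out, the second being H3f3a without KO replicate 1. The cause was not tested. Other counts of calls stayed within 1.5 times. Rmrp could not be fitted with the 4 CPM minimum, so that list has no value there. Replicate numbers did not pair the libraries (correlations of same-numbered deviations -0.0236, -0.0155 and 0.0637). With them as a block, 27 histone genes were called, the same as without. Members under 10 in all controls have too few reads for a firm fold change.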
